A study of Schizosaccharomyces pombe with 2 samples.

Results

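The 116 tRNA genes on the arms of the 3 chromosomes of fission yeast (Schizosaccharomyces pombe) were examined for binding of Cnd2, the kleisin subunit of condensin. They were all genes annotated as tRNA on chromosomes I, II and III outside the centromeric stretches I:3751730-3790923, II:1596745-1648231 and III:1064444-1142615, which are the widest gaps between coding genes on their chromosomes. They make up 116 of 171 nuclear tRNA genes, with 49 on chromosome I, 41 on II and 26 on III. Each gene was given the nearest peak of the authors' list whose summit lay inside it or at most 500 bp away. There was 1 Cnd2 ChIP library, made with an anti-HA antibody, and 1 input library. Both came from strain YUK421, which carries Cnd2-HA, grown in EMM with glutamate, held in mitosis with 5 µg/mL thiamine and fixed with 0.5% formaldehyde for 30 min at 25 °C. The gene that thiamine shuts off is not given in the sources used here, and an untagged strain was not analysed here. With 1 library in each group no value has a replicate check, so differences between genes are described and not tested.

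RNA polymerase III reads tRNA genes from a promoter inside the gene. The factor TFIIIC binds its A box and B box and places TFIIIB, which contains the TATA-binding protein, just upstream of the gene, and a run of T after the gene ends transcription. tRNA genes are known sites of condensin binding in yeasts, and condensin is the ring-shaped complex that compacts chromosomes for mitosis.

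The sequences below, read from the RefSeq ASM294v3 genome on each gene's own strand, show the genes on which the comparisons turn. Each holds 45 bases before the gene, the gene, and 15 bases after it. Capitals mark TATA upstream, the B box core GTTCNANNC inside the gene, and the T run after it. The first set is the 6 genes without a peak, with an identical copy that had one shown under SPATRNATHR.01 and under SPATRNAALA.03.
SPATRNATHR.01: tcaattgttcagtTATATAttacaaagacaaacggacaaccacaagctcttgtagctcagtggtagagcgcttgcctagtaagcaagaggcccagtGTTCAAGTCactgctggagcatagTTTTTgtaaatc
SPATRNATHR.05: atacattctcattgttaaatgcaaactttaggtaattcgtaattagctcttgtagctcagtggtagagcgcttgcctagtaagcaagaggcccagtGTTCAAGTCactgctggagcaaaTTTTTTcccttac
SPATRNAALA.03: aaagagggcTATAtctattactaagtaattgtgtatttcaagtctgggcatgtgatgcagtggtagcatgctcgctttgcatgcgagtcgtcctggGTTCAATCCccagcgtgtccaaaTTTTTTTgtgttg
SPATRNAALA.02: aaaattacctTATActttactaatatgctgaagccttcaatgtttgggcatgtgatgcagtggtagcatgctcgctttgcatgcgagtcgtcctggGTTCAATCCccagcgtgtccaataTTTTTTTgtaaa
SPATRNAALA.01: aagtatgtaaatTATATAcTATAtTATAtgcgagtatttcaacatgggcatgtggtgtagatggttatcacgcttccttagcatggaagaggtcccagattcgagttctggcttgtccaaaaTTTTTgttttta
SPBTRNATRP.02: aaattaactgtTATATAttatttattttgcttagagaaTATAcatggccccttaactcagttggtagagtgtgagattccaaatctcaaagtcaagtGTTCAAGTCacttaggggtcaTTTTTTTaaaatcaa
SPBTRNAMET.04: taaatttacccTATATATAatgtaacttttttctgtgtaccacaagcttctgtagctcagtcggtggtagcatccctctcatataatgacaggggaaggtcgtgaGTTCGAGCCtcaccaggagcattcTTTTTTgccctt
SPBTRNAMET.06: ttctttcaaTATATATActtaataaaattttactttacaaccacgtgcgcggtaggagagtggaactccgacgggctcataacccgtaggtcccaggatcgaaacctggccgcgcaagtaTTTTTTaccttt
The next run is a serine and an initiator methionine gene 7 bp apart, which shared a peak. The methionine gene in it has the same sequence as SPBTRNAMET.06.
SPATRNASER.01 and SPATRNAMET.01: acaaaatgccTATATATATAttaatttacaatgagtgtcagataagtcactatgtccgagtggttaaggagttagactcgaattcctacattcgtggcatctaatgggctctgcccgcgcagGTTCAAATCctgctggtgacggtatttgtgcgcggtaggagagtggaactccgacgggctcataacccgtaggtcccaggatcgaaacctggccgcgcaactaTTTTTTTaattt
The last set is the gene of highest fold with its valine partner of the same mature sequence, and the strongest and weakest of 6 identical proline genes.
SPATRNAVAL.04: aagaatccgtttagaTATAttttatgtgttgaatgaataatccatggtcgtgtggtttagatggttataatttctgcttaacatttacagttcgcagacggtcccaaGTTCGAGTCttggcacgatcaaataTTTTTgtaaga
SPATRNAVAL.03: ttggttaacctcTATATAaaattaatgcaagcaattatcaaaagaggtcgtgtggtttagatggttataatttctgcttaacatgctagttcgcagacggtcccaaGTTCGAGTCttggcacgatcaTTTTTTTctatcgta
SPBTRNAPRO.07: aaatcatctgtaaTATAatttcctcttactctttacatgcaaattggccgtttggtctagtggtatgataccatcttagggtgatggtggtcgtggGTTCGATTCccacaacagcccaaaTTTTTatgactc
SPBTRNAPRO.05: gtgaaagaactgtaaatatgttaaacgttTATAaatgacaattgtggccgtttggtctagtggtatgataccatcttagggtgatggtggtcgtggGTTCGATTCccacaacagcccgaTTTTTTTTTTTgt

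A Cnd2 peak was present at 110 of the 116 arm tRNA genes (94.8%, exact Clopper-Pearson 95% interval 89.1 to 98.1). The interval treats genes as independent draws, although these are all the arm tRNA genes and some shared a peak. It says nothing about repeat libraries. Among annotated genes other than tRNA genes outside the centromeres the share was 11.8%, and among protein-coding genes there it was 15.1%, although those genes had a median length of 1773 bp and so offered a longer target. The share was 77.8% for the 36 5S rRNA genes outside the centromeres, also read by RNA polymerase III, and 30.9% for the 55 tRNA genes inside the centromeres. The 17 centromeric genes with a peak lay at wide peaks, with a median width of 1180 bp counted per gene, against 348.5 bp on the arms. Whether the 500 bp rule missed centromeric genes under a wide peak was not tested. The 110 genes lay at 104 distinct peaks, and 6 peaks were shared by 2 genes each, so 6 genes were assigned a summit that lay nearer the start of a neighbouring tRNA gene. These peaks were 17.0% of the 611 peaks on the arms.

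Fold enrichment, the authors' ratio of ChIP pileup to local background at the summit, had a median of 2.74 over the 110 genes, with quartiles of 2.39 and 3.27 and a range of 1.65 to 9.62. The 507 arm peaks away from any tRNA gene had a lower median of 1.59, with quartiles of 1.34 and 2.13, but a wider range of 1.11 to 24.4. Median pileup was 987.5 fragments over the 110 genes and 690 over these other peaks. The background at the summit, recovered from pileup and fold, had medians of 348 and 413. Its part in the difference in fold was not tested. Fold lay between 2 and 4 at 97 of the 110 genes (88.2%), and at 22.5% of those other peaks. Peaks at arm tRNA genes were therefore a narrow band of moderate height: they were 44.4% of the 205 arm peaks in that range, and 9 of the 41 above 4. They were also narrow in extent, with a median width of 346.5 bp over the 104 distinct peaks, against 566 bp for the others. The 22 peaks near a 5S rRNA gene and no tRNA gene came closest, with a median fold of 2.27 and a median width of 296.5 bp. At the 17 centromeric tRNA genes with a peak the median fold was higher than on the arms, at 4.598, with quartiles of 4.05 and 7.56. The lower share inside the centromeres thus did not go with a lower fold at the peaks called there.

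The summit marked the start of the tRNA gene more closely than its middle or end. It lay a median of 7 bp from the first base of the annotated gene, 40 bp from its middle and 77.5 bp from its last base. Of the 110 summits, 101 (91.8%) were within 20 bp of the first base and 81 within 10 bp. They fell on both sides of it, 55 upstream, 53 inside the gene and 2 past its end, with a median signed offset of -0.50 bp and quartiles of -7 and 4.5 bp. Of the 9 summits farther than 20 bp, 7 belonged to genes that shared a peak with a neighbour. The other 2 lay 31 bp inside SPBTRNAHIS.02 and 26 bp inside SPBTRNAGLU.08.

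**Figure D1:**
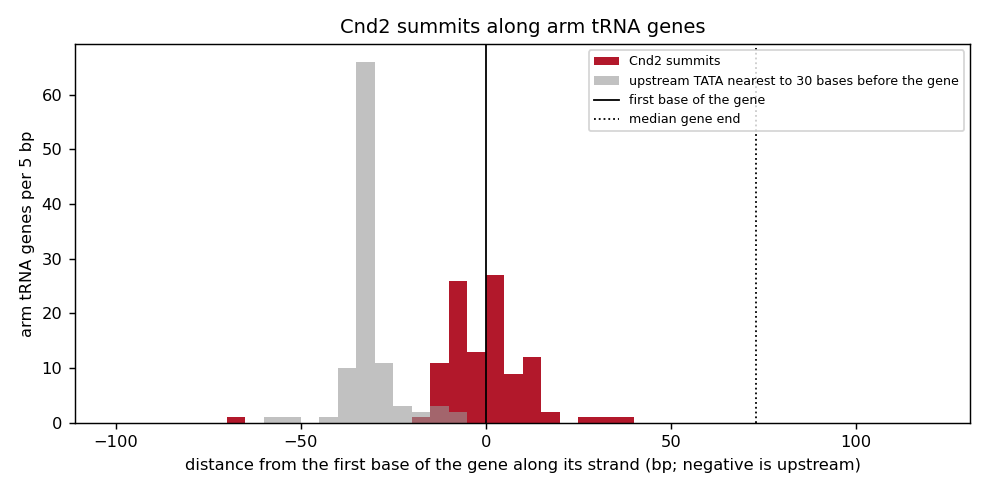
Number of arm tRNA genes (vertical axis, per 5 bp) by distance from the first base of the gene along its strand (horizontal axis, bp), for Cnd2 summits and for the upstream TATA nearest to 30 bases before the gene. Summits gather at the first base and the TATA lies upstream of them; 5 summits fall outside the plotted range.

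The upstream TATA, the B box core and the T run were present at most arm genes, and the A box core as first spelled at a minority. TATA stood in the 60 bases upstream of 100 of 116 genes (86.2%), searched for the letters TATA, which read the same on both strands. The share was 38.4% for protein-coding genes outside the centromeres and 28.0% for all 60 bp windows of the chromosomes. At 88 genes (75.9%) a TATA began 40 to 25 bases before the gene, against 22.2% of protein-coding genes outside the centromeres. The B box core GTTCNANNC, searched on the gene's strand, was found in 109 genes (94.0%), against 1.23% of 74 bp windows. The A box core TNGCNNA was found in the first 30 bases of only 40 genes (34.5%), against 8.55% of 30 bp windows. With fewer letters, TNGNNNA, a form chosen after seeing the data, it was found in 108, most often from base 8, though 38.8% of 30 bp windows hold it too. TTTT followed within 30 bases at 112 genes (96.6%), against 25.5% of windows. A match is a description of these letters and not a binding site.

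All 6 genes without a peak had an upstream TATA and a T run and 4 had the B box core, as marked in the printed sequences. The wider A box, which is not marked there, was found in 5 of the 6. The 16 genes with no TATA in reach all had a peak, with a median fold of 2.64, against 2.85 for the 94 genes with both a TATA and a peak. The 4 genes without TTTT were SPATRNASER.01, SPATRNASER.03 and SPCTRNASER.11, each followed after 7 bp by a methionine gene, and SPBTRNAGLN.01. All 4 had a peak. The 7 genes without the B box core differed from these: SPATRNAALA.01 and SPBTRNAMET.06 had no peak, 4 (SPATRNAMET.01, SPATRNAMET.03, SPCTRNAMET.07 and SPBTRNAALA.07) had only the summit of a neighbouring tRNA gene, and SPATRNAARG.01 alone had a summit at its own start, at a fold of 2.16. Of the 109 genes with this core, 105 had a peak by the 500 bp rule. Among these 105, SPBTRNAGLY.05 and SPBTRNALYS.09 had only a neighbour's summit. The 7 genes without the core are not separate sequences, since the 4 methionine genes are identical and so are the 2 alanine genes. The genes of this comparison were named after their values were seen.

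The genes without a peak were SPATRNAALA.01, SPATRNATHR.01 and SPATRNAALA.03 on chromosome I and SPBTRNAMET.04, SPBTRNATRP.02 and SPBTRNAMET.06 on chromosome II. None of the 26 genes on chromosome III lacked one. The gap around the 500 bp limit was wide. The genes just inside it were SPBTRNAGLY.05 at 425 bp, SPBTRNALYS.09 at 341 bp and SPBTRNAALA.07 at 204 bp from the summit, and each of these was assigned the peak of a neighbouring tRNA gene. The nearest outside were SPATRNATHR.01 at 7117 bp, SPATRNAALA.03 at 7258 bp and SPBTRNAMET.06 at 8448 bp. SPBTRNAMET.04, SPBTRNATRP.02 and SPATRNAALA.01 were 14727, 15646 and 22433 bp from any summit. The list gives no value where no peak was called, so weaker enrichment at the 6 genes was not measured here.

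Copies of the missing genes elsewhere on the arms did have peaks. SPATRNATHR.01 (I:1603305-1603376), a threonine gene between slm3, a tRNA-modifying enzyme gene, and erv25, has the same 72 bases as SPATRNATHR.02, SPBTRNATHR.07 and SPATRNATHR.05, whose folds were 2.34, 2.38 and 3.48. SPBTRNATRP.02 (II:717076-717148), between ubc4 and cmt1, matches SPBTRNATRP.03 at 2.02 and SPATRNATRP.01 at 2.20, the 2 tryptophan genes with a peak. SPATRNAALA.03 (I:3157430-3157501), 97 bp from peg1, a microtubule-associated CLASP gene, matches SPATRNAALA.02, which had the lowest fold of all arm tRNA genes with a peak, 1.65. Thus these sequences were found both with and without a peak. Upstream of the gene the copies differ: of the 45 bases before it, 15 positions are equal between SPATRNATHR.01 and SPATRNATHR.05, and 18 between SPATRNAALA.03 and SPATRNAALA.02.

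The other alanine gene without a peak, SPATRNAALA.01 (I:934665-934738), matches SPBTRNAALA.07, whose assigned summit of 3.31 lay 13 bp upstream of the neighbouring glycine gene SPBTRNAGLY.04. SPBTRNAMET.06 (II:2434303-2434374), an initiator methionine gene 99 bp from map4, matches SPATRNAMET.01, SPATRNAMET.03 and SPCTRNAMET.07. Each of those follows a serine gene by 7 bp and shared its peak, at folds of 2.37, 2.68 and 2.10. The summit was 66, 110 and 111 bp upstream of these methionine genes. No initiator copy thus had a summit within 20 bp of its own first base. SPBTRNAMET.04 (II:658451-658531), 93 bp from hip4, a histone chaperone gene, has a mature sequence identical to that of SPATRNAMET.02, at 2.64, with a different intron.

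All 6 genes without a peak belonged to the 87 arm genes whose mature sequence occurs again among the 171 tRNA genes, and the 29 genes with no such copy all had a peak. By gene sequence, introns included, 81 arm genes had a copy. Of the genes without a peak, SPBTRNAMET.04 alone had no copy by gene sequence. Conversely, SPBTRNASER.06, one of the 29, shares its gene sequence with SPCTRNASER.10 and SPCTRNASER.13. How the authors' alignment placed fragments that fit several copies is not given in the sources used here, and its part in the missing peaks was not tested. Among genes with a peak the median fold was 2.81 with a copy of the mature sequence elsewhere and 2.68 without one.

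Valine, asparagine and arginine genes had the highest median folds among the amino acids and tryptophan, tyrosine and glutamate genes the lowest, but the ranges overlapped widely. Medians were 3.63 for 5 valine genes, 3.29 for 6 asparagine genes and 3.28 for 7 arginine genes. They were 2.35 for 5 glutamate genes, 2.29 for 2 tyrosine genes and 2.11 for the 2 tryptophan genes with a peak. Within an amino acid the spread was often as large as that between amino acids.

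Valine genes ran from 1.94 at SPATRNAVAL.01 to 9.62 at SPATRNAVAL.04. Glycine genes ran from 1.84 at SPBTRNAGLY.06 to 5.41 at SPCTRNAGLY.12, and arginine genes from 1.997 at SPATRNAARG.03 to 5.14 at SPBTRNAARG.05. These 3 amino acids had the widest ranges. Asparagine genes spanned 2.57 at SPBTRNAASN.02 to 4.78 at SPCTRNAASN.06, and glutamine genes 2.38 at SPBTRNAGLN.02 to 4.45 at SPCTRNAGLN.06. Proline genes spanned 2.32 at SPBTRNAPRO.08 to 4.51 at SPBTRNAPRO.07. For each of these 6 the highest gene stood above the upper quartile of all arm tRNA genes. The same held for other amino acids, serine, lysine, threonine, leucine and histidine among them.

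Serine genes, the largest group with 12, spanned 2.10 at SPCTRNASER.11 to 4.13 at SPCTRNASER.13. Lysine genes spanned 2.31 at SPATRNALYS.01 to 4.12 at SPATRNALYS.05, and threonine genes 2.01 at SPATRNATHR.04 to 3.48 at SPATRNATHR.05. Leucine genes spanned 2.32 at SPATRNALEU.01 to 3.39 at SPATRNALEU.03. Glutamate genes were held within 2.06 at SPBTRNAGLU.05 and 2.42 at SPCTRNAGLU.09, and methionine genes with a peak within 2.10 at SPCTRNAMET.07 and 2.68 at SPATRNAMET.03, both of them values of a serine neighbour's peak. Alanine and methionine, with 2 genes each, accounted for 4 of the 6 genes without a peak. The 25 genes with an intron and a peak had a median of 2.57, against 2.86 for 85 genes without an intron.

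**Figure D2:**
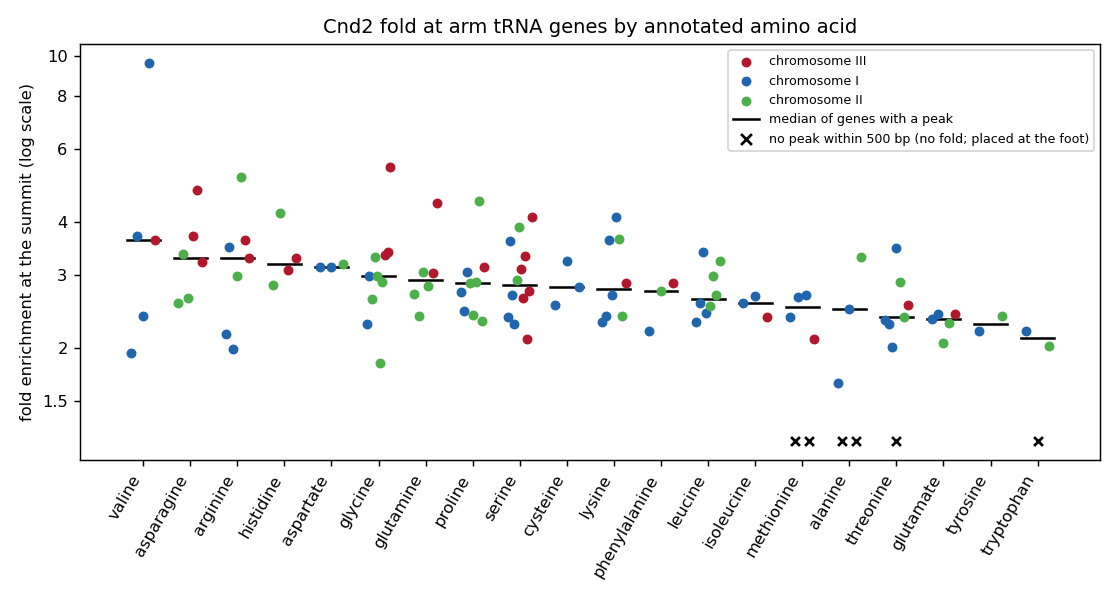
Fold enrichment at the summit (log scale) for each arm tRNA gene, grouped by annotated amino acid and coloured by chromosome, with the median of genes with a peak as a line and genes without a peak as crosses at the foot. Most points lie between 2 and 4 for every amino acid, and SPATRNAVAL.04 stands alone at 9.62.

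Fold differed widely within some sets of identical genes and little within others. There were 26 sets of arm genes with the same gene sequence, holding 80 genes, and in the 24 sets with at least 2 peaks the highest copy exceeded the lowest by a median ratio of 1.26 and at most 1.88. With only genes that had their own summit, the median ratio was 1.24 over 23 sets. The 6 proline copies ran from 2.40 at SPBTRNAPRO.05 to 4.51 at SPBTRNAPRO.07. The same 72 bases, printed above, thus stood at both levels, with 11 of the 45 upstream positions equal.

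The 4 asparagine copies ran from 2.57 at SPBTRNAASN.02 to 4.78 at SPCTRNAASN.06, and the 6 glycine copies from 1.84 at SPBTRNAGLY.06 to 3.39 at SPCTRNAGLY.11. The 3 arginine copies ran from 1.997 at SPATRNAARG.03 to 3.50 at SPATRNAARG.02. In each of these sets the highest copy was over 1.7 times the lowest. The 4 lysine copies ran from 2.39 at SPBTRNALYS.09, which is the value of the neighbouring tyrosine gene's peak, to 4.12 at SPATRNALYS.05, and the ratio was 1.54 over the 3 copies with their own summit. The 6 serine copies ran from 2.28 at SPATRNASER.04 to 3.61 at SPATRNASER.02, and the 4 histidine copies from 2.84 at SPBTRNAHIS.01 to 4.22 at SPBTRNAHIS.02. A second serine set held SPCTRNASER.10 at 3.33 and SPCTRNASER.13 at 4.13 as its ends. Other sets were close together. The 4 aspartate copies spanned 3.13 at SPATRNAASP.01 to 3.22 at SPCTRNAASP.08, a ratio of 1.03, and the 2 tryptophan copies with a peak had a ratio of 1.09. The ratio was 1.17 for 3 glutamate copies, SPBTRNAGLU.05 to SPCTRNAGLU.09. The smallest ratio of all, 1.02, was that of a pair of valine copies. SPCTRNAASP.08 is annotated as an asparagine tRNA although its sequence and anticodon are those of the aspartate genes, and it is counted with asparagine above.

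**Figure D3:**
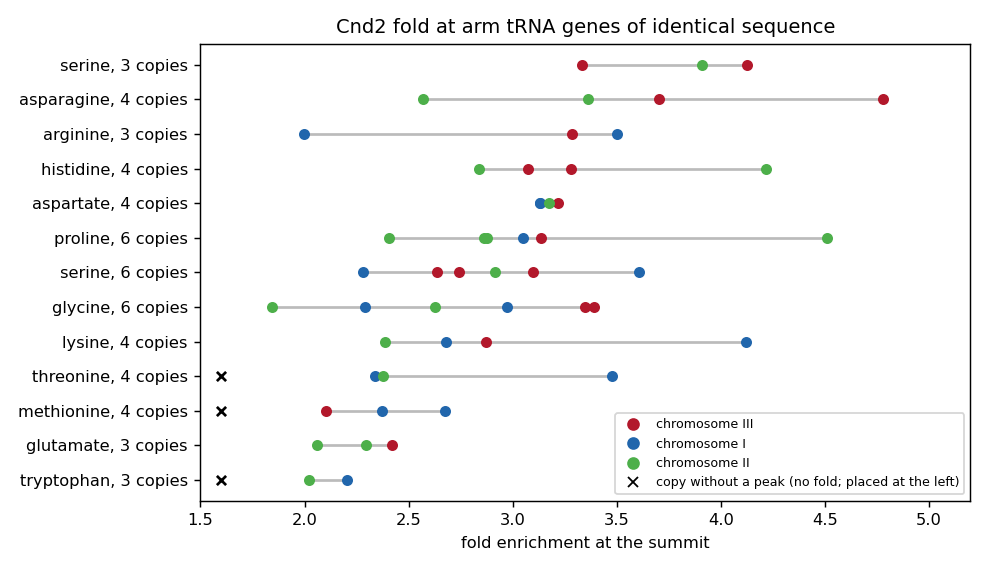
Fold enrichment at the summit (horizontal axis) for every set of 3 or more arm tRNA genes of identical sequence, 1 point per gene coloured by chromosome, with crosses at the left for copies without a peak. Aspartate copies coincide near 3.1, whereas proline copies run from 2.40 to 4.51.

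Fold was higher on chromosome III than on chromosomes I and II, and the pileup and the background were higher there too. Median fold was 3.18 for the 26 genes on III, 2.51 for 46 genes on I and 2.85 for 38 genes on II, which put III at 1.19 times the pooled median of the other chromosomes. Median pileup was 1502 fragments on III, 851 on I and 966.5 on II. The background at the summit, recovered from pileup and fold, had medians of 482 scaled fragments on III, 337 on I and 347 on II. The ratio of III to the others was 1.64 by pileup. The ranges of fold overlapped, at 2.10 to 5.41 on III, 1.65 to 9.62 on I and 1.84 to 5.14 on II. Copies of the same sequence could be paired between III and I or II in 47 ways, over 20 genes on III and 32 on the others. The copy on III had the higher fold in 32 pairs, the higher pileup in 43 and the higher background in 46. These pairs share genes and are not independent. The part of the background in the difference was not tested.

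**Figure D4:**
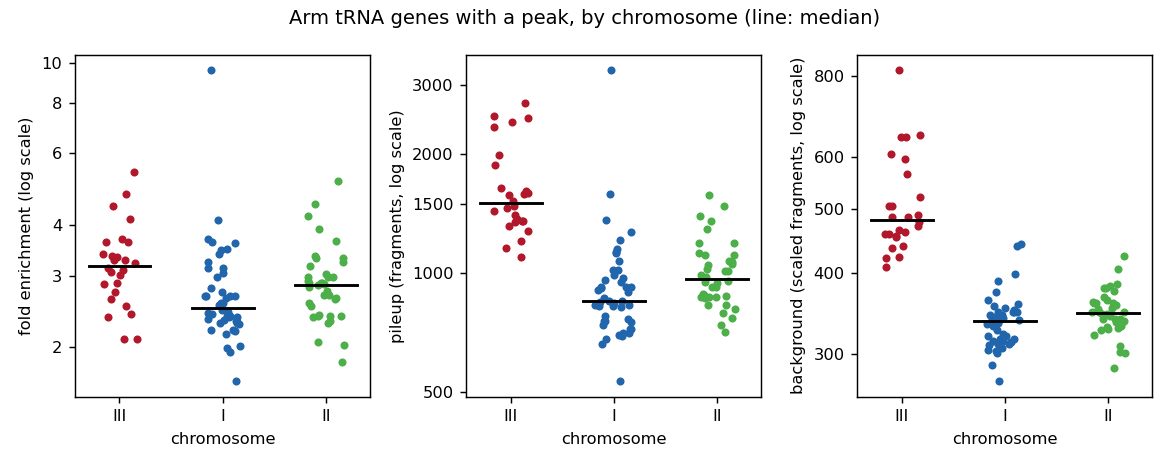
Fold enrichment, pileup in fragments and recovered background in scaled fragments (log scales) at the summits of arm tRNA genes on chromosomes III, I and II, 1 point per gene with the median as a line. All 3 measures are highest on chromosome III, with medians of 3.18, 1502 and 482.

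Clustered genes, those with another tRNA gene within 1000 bp, often shared a summit. There were 17 clustered genes, all within 500 bp of a summit, but 6 of them only of a neighbour's, so 11 had their own. Of 99 single genes, which have no neighbour to share with, 93 had a peak, and the shares of the 2 groups are not compared for that reason. Median fold was 2.68 for clustered genes, with a range of 2.10 to 3.31, and 2.84 for single genes, with a range of 1.65 to 9.62. The pairs were of several kinds. In the serine and methionine pairs the summit was at or inside the serine gene, 39 bp inside SPATRNASER.01, 6 bp upstream of SPATRNASER.03 and 7 bp upstream of SPCTRNASER.11. In the pairs SPBTRNAARG.04 with SPBTRNAGLY.05 and SPBTRNATYR.04 with SPBTRNALYS.09 the single summit was 6 and 1 bp upstream of the arginine and tyrosine genes. By contrast, SPBTRNAGLN.01 and SPBTRNAGLN.02, 382 bp apart, had a summit each, at 2.70 and 2.38, as did SPATRNACYS.03 and SPATRNAPHE.01, 818 bp apart, at 2.80 and 2.20.

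Median fold differed little between the arrangements of neighbouring coding genes. Arm tRNA genes lay between tandem coding genes in 55 cases, divergent ones in 43 and convergent ones in 17. The remaining 1, SPATRNATYR.01, overlapped the coding gene dal81. Its summit lay 2 bp from a coding 3′ end and in no coding gene. All 17 genes between convergent genes had a peak, with a median fold of 2.92. Between tandem genes 52 had one, with a median of 2.85, and between divergent genes 40, with a median of 2.60. With a coding 3′ end within 500 bp of the summit the median was 2.88 over 53 genes, against 2.63 over 57 genes without one. On chromosome III these medians were 3.45 and 2.95 and on II 2.90 and 2.65, but on I they were 2.48 and 2.54, so the order did not hold on every chromosome. The quartiles of these classes overlapped. Distance to the nearest coding gene was a separate measure. Its Spearman rank correlation with fold was -0.50 on III and -0.37 on II but -0.03 on I, given as a description and not tested. A peak was present at 89.7% of the 39 genes within 250 bp of a coding gene. It was present at 97.5% of the 40 genes at 250 to 500 bp and at 97.3% of the 37 genes farther away.

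The strongest gene stood apart from the rest. SPATRNAVAL.04 (I:3710739-3710821, minus strand) had a fold of 9.62, with 3268 fragments piled up at the summit and a background there of 339, under a peak 3748 bp wide that also reached tca17, a TRAPP complex gene, ppk3, a kinase gene, ubr11, a ubiquitin ligase gene, and 4 non-coding RNA genes. Its summit lay 14 bp inside the tRNA gene. SPATRNAVAL.03, with the same mature sequence and an intron of 8 in place of 9 bases, had a fold of 2.39 and a pileup of 819, under a peak 277 bp wide. Thus the highest value among arm genes was not shared by its partner on the arms. The full gene sequence of SPATRNAVAL.04, intron included, occurs 8 times among the 171 tRNA genes, and all its other copies lie inside the centromeres. How fragments that fit several copies were placed is not known, and its part in this value was not tested.

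Of the 9 that followed, 4 lay between convergent genes. SPCTRNAGLY.12 (5.41) lay between set5, a histone methyltransferase gene, and met1, a methyltransferase gene, SPBTRNAARG.05 (5.14) between meu18 and stn1, a telomere cap gene, and SPBTRNAPRO.07 (4.51) between ubp9 and a phosphate transporter gene, SPBC1703.13C. SPCTRNAASN.06 (4.78), between SPCC417.12 and SPCC417.15, was also 151 bp from a 5S rRNA gene. Tandem neighbours flanked SPCTRNAGLN.06 (4.45, SPCPB1C11.02 and SPCPB1C11.03), SPBTRNAHIS.02 (4.22, dic1 and ecl2), SPCTRNASER.13 (4.13, amt1 and SPCPB1C11.02) and SPBTRNASER.06 (3.91, imp2 and ndc80, a kinetochore gene). SPATRNALYS.05 (4.12), like SPATRNAVAL.04, lay between divergent genes. Of the 10 strongest, 8 had a coding 3′ end within 500 bp of the summit, against 48.2% of all arm tRNA genes with a peak. These 8 were all on chromosome II or III. SPATRNALYS.05 and SPATRNAVAL.04, which had no such end, were the only ones of the 10 on I. Over all genes with a peak on I the median fold was 2.48 with such an end and 2.54 without.

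The 5 weakest were SPATRNAALA.02 (1.65), SPBTRNAGLY.06 (1.84), SPATRNAVAL.01 (1.94), SPATRNAARG.03 (1.997) and SPATRNATHR.04 (2.01). Their peaks were 219 to 248 bp wide, the fragment length given for the library being 208 bp. Each still had its summit within 11 bp of the first base of the gene. At the 10 strongest genes the summit was up to 31 bp from the first base. A long terminal repeat of a retrotransposon lay within 500 bp of 4 arm genes, SPATRNAVAL.01 among them at 4 bp, and their median fold was 3.17, against 2.74 for the others.

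By position along the arm, genes over 2000 kb from a centromere had a median fold of 2.39 (24 genes with a peak), and the 6 genes under 100 kb a median fold of 3.19. Between them the order was not steady, with medians of 3.10 from 500 to 1000 kb, 2.70 from 1000 to 2000 kb and 2.68 from 100 to 500 kb. None of the genes over 2000 kb away was on chromosome III. Within chromosomes, the Spearman rank correlation of fold with distance to the centromere was -0.25 on I, 0.04 on II and 0.07 on III. These values are a description and were not tested.

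Coding genes for the RNA polymerase III machinery did not stand out in their share near a summit. Of 41 names in a list of polymerase subunits, assembly factors and RNA genes, 7 were not matched in the annotation. Of 31 coding genes of the list, which includes 2 genes of RNA polymerase I, 3 had a peak (9.68%), against 15.1% of protein-coding genes outside the centromeres. They were rpc82, a polymerase III subunit, at 6.75, tbp1, the TATA-binding protein, at 1.55, and maf1, a repressor of the polymerase, at 1.51. The 3 RNA genes of the list had folds of 3.49 at srp7, 1.96 at snu6 and 1.72 at rrk1.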

How the data were processed

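One anti-HA Cnd2 ChIP library and its input were analysed from the authors' peak list. BWA 0.7.12, MACS2 2.1.0 and the build ASM294v2 come from the submitters' processing notes. Per the file headers, MACS 2.1.0.20150731 called peaks on paired-end fragments, with a q-value cutoff of 0.05, 1 fragment kept per position and a background from windows of 1000 and 10000 bp. The ChIP library held 39685815 fragments (25933013 kept) and the input 60564558 (54272630 kept). The deposited pileup is a coverage signal, the number of fragments over the summit. The deposited fold enrichment is a ratio of pileup to local background. The deposited significance columns hold −log10 p-value and −log10 q-value. The header's genome size of 1.87e+09, against 12.6 Mb of chromosomes, lets the background fall below the genome mean of 429, as it did at 85 of the 110 genes.

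Genes and sequences came from RefSeq ASM294v3, which is newer than the build the authors used; no coordinates were converted, and gene coordinates are those of ASM294v3. Summit distances, copies of identical sequence, neighbours and motifs were computed with pandas 2.3.3, numpy 2.4.6, matplotlib 3.10.9 and scipy 1.17.1 under Python 3.11.15. The background was recovered from pileup and fold with a pseudocount of 1. The matching was tested on simulated data. The members and lists were chosen with earlier results of these data known. Genes named were those without a peak, the 10 strongest and 5 weakest, the 3 nearest on each side of the 500 bp limit, the highest and lowest of each amino acid with 5 or more genes and of each set of 3 or more identical copies, the coding neighbours of the 10 strongest (those of SPATRNALYS.05 are not reported here), listed polymerase III genes with a peak, and genes lacking a motif where 5 or fewer did. Members of pairs and other genes were named after their values were seen. Alternatives were other distances, stricter peaks, a held background, pileup in place of fold, distinct peaks and other cluster limits.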

Additional observations from a re-analysis of the deposited data

Results flagged for a closer look

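A signal lay outside the chromosomes used here. The sequence named MTR, which entered no comparison, carried 4 peaks called against the input, the highest with a fold of 2.11.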

How the results depend on the processing

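Of 50 values under the alternatives, 48 stayed within 1.5 times the reported value and on the same side of a ratio of 1. With the summit required inside the gene, 53 genes had a peak in place of 110, since 55 summits lay upstream of the first base and 2 past the last. With pileup in place of fold the median was 987.5 fragments, a value in another unit. The median fold was 2.27 with the background held at or above the genome mean, and the ratio of chromosome III to I and II was then 1.47. Without SPATRNAVAL.04, an alternative chosen after seeing the data, the median fold was 2.74. No paired analysis was possible because each group held 1 library. Neither group has a replicate, an untagged strain was not analysed here, and the depth of coverage at genes without a peak is unknown.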
